A study of Homo sapiens with 47 samples.

Results

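Distal H3K27ac sites with RNAPII were 85 genomic intervals away from every annotated transcription start site (TSS) at which Ishikawa cells carried both acetylated histone H3 lysine 27 (H3K27ac) and RNA polymerase II (RNAPII). They were chosen by measured values: the peaks of all 20 H3K27ac lists were merged, which gave 41675 intervals, and an interval was kept if it was under 4000 bp, had a peak in at least 16 of the 20 H3K27ac lists, had no GENCODE TSS within 5 kb, lay over 5 kb from the 19 loci that gRNAs targeted, and overlapped peaks in at least 10 of the 20 RNAPII lists. Of the 41675 intervals, 2849 had a peak in at least 16 H3K27ac lists, 188 of these were distal, and 85 of the 188 also carried RNAPII in at least 10 lists. Since H3K27ac and RNAPII peaks chose the sites, their presence there is a description and not a result.

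The ChIP-seq libraries came from Ishikawa cells, a human endometrial adenocarcinoma line kept without hormones (at least 5 days in depleted media before transfection), so that the estrogen receptor had no added ligand. Cells were transfected with a plasmid for HA-tagged catalytically dead Cas9 fused to a strong activation domain, dCas9-VP16(10x), or to the acetyltransferase core of p300, dCas9-p300(core), together with gRNA plasmids, and were selected with antibiotics for both plasmids. The gRNAs were Pool 1, Pool 2 or Pool 3 (each for 1 estrogen receptor-bound site, ERBS, of MMP17, CISH, FHL2 and HES2), the Adjacent pool (regions near these sites) or the IL1RN promoter as control. Each of the 10 combinations of construct and pool had 2 libraries for H3K27ac and 2 for RNAPII, and HA ChIP-seq, against the tag on dCas9, had 5 libraries of dCas9-VP16(10x) cells (2 with the gRNAs for all ERBSs, 2 Adjacent and 1 IL1RN) and 2 libraries of dCas9-p300(core) cells (all ERBSs). The first H3K27ac library of dCas9-VP16(10x) Adjacent is labelled as Adjacent and IL1RN together. For replicate 2 of dCas9-VP16(10x) Pool 1 with H3K27ac, the code in the peak names has the letter that otherwise stands in dCas9-p300(core) lists, whereas its title has that of dCas9-VP16(10x). The title was followed, and without this list no H3K27ac call changed. No label says that replicates came from separate cultures, so p-values measure the spread between these libraries, which may be technical. Every library came from cells with a dCas9 fusion, and no gRNA pool was designed for any of the 85 sites.

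H3K27ac is deposited by p300 and CBP and marks active promoters and enhancers. RNAPII is loaded at promoters, but it is also found at many active enhancers, where it can make short unstable RNAs in both directions, and at promoters of transcripts that an annotation lacks. Many promoters lie in CpG islands, stretches that have kept their CpG dinucleotides, whereas most enhancers are CpG-poor and hold motifs for factors such as AP-1 and TEAD, which act together at enhancers of epithelial and cancer cells.

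H3K27ac peaks lay over TSSs of markers of an epithelial, Mullerian-type line. Peaks covered a TSS of KRT8, KRT18 and ESR1 in 20 lists each, of PAX8 in 18 and of EPCAM in 16, but of CDH1 in 8 and of SOX17 in 6. Of the markers for other cell types, PTPRC, CDH5, COL3A1, ALB and RBFOX3 had a peak over a TSS in 0 of 20 lists, COL1A1 had one in 7, and PECAM1 is not in the annotation. Lists differed widely in size, from 1805 to 32052 peaks for H3K27ac and from 16041 to 40757 for RNAPII, and read depth is unknown because the lists hold no counts. Between 31 and 85 of the 85 sites had an H3K27ac peak in a given list, with the fewest in replicate 2 of dCas9-p300(core) Pool 3, which is also the smallest list. Between 49 and 85 sites had an RNAPII peak.

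The sequence at the RNAPII summit is shown for 8 of the sites, since it carries a contrast described further on. The first 5 are from the 10 sites with the most RNAPII, all of which had CpG-rich windows, and the last 3 are CpG-poor sites from the 5 with the largest RNAPII difference between constructs after centring. Each run is 300 bp of hg19 (GRCh37) centred on the median RNAPII summit, and capitals mark matches on either strand to the 12 motifs searched. The examples were chosen with their motifs known, and only 3 of the 10 sites with the most RNAPII held an AP-1 motif.
PTMA b, chr2:232545887-232546186, plus strand: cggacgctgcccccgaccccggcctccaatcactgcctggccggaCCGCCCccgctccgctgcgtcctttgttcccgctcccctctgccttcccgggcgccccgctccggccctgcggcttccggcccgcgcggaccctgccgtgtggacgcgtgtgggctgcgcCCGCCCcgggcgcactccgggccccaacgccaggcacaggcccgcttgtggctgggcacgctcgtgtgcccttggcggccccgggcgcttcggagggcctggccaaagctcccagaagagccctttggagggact
IPO7, chr11:9385796-9386095, plus strand: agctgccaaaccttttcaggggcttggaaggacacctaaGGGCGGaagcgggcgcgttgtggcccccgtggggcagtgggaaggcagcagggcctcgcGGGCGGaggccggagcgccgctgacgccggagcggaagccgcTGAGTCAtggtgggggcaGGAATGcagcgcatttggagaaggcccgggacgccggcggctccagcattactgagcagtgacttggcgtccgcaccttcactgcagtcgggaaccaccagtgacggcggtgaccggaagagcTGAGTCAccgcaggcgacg
EDN2, chr1:41961928-41962227, plus strand: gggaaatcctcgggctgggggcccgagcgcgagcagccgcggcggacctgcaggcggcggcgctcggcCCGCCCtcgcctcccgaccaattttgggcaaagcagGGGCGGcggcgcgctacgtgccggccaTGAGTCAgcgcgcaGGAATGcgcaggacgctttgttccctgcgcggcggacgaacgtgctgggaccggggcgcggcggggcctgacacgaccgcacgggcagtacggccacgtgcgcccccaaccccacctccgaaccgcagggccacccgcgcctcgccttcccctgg
GLDC, chr9:6681203-6681502, plus strand: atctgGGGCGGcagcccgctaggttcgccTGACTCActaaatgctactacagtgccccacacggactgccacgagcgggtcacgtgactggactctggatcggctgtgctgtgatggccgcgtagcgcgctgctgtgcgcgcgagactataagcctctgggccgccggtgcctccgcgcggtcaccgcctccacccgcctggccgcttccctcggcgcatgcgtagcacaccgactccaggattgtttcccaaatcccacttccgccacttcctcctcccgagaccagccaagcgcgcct
MYH9, chr22:36806276-36806575, plus strand: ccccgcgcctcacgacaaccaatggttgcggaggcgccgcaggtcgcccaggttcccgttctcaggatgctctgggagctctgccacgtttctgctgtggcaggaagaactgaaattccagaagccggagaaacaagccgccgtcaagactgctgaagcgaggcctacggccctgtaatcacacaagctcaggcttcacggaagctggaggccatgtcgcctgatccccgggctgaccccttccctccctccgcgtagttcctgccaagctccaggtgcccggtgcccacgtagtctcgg
USP25, chr21:17936127-17936426, plus strand: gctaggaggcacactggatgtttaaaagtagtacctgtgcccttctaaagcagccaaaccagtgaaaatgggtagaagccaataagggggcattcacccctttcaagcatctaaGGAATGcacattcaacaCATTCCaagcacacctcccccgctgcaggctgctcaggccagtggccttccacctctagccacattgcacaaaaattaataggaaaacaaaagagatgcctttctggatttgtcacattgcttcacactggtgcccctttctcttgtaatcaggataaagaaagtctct
HDGFL1, chr6:22828545-22828844, plus strand: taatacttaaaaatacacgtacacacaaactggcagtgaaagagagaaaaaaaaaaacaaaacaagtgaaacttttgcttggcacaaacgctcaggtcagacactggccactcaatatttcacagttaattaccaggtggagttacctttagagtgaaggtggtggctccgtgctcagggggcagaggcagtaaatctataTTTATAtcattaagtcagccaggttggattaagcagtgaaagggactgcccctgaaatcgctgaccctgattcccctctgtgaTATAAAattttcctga
STK24, chr13:99137065-99137364, plus strand: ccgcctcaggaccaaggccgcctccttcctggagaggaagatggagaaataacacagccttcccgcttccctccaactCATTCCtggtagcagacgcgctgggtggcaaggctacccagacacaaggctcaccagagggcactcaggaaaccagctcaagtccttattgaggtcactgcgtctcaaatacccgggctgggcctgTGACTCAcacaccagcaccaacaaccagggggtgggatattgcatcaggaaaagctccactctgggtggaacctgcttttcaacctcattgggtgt

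Sites are called by the gene with the nearest protein-coding TSS, with a and b in order of position where 2 sites share it, and nearness does not say which gene a site acts on. The windows near PTMA, IPO7, EDN2 and GLDC held 2, 2, 2 and 1 GC boxes (GGGCGG, the letters bound by SP1 and related factors), and their CpG observed/expected ratios were 0.820, 0.863, 1.03 and 0.974. The IPO7 window also held 2 AP-1 motifs (TGANTCA), and the EDN2 and GLDC windows 1 each. A TEAD motif (GGAATG) was in both the IPO7 and the EDN2 window. The MYH9 and TEF windows, also CpG-rich, held none of the 12 motifs. The USP25 window held 2 TEAD motifs at a CpG ratio of 0.0625, the STK24 window held 1 AP-1 and 1 TEAD motif at 0.293, and the HDGFL1 window held only TATAAA, in 2 places, at 0.308.

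The sites with the most RNAPII were mostly intergenic, 8 of the first 10. By the median fold enrichment over the 20 RNAPII lists, with no peak counted as 0, the 85 sites ranged from 1.66 to 31.0 with a median of 9.21. The first was PTMA b (chr2:232544731-232546831), intergenic and 24774 bp upstream of PTMA, which encodes the nuclear protein prothymosin alpha. There, enrichment was 13.0, 22.9 and 38.4 (lowest, median and highest) in the 10 dCas9-VP16(10x) libraries and 13.0, 43.3 and 77.1 in the 10 dCas9-p300(core) libraries. The groups overlapped, although the median with dCas9-p300(core) lay above the highest value with dCas9-VP16(10x). A second site, PTMA a (chr2:232529955-232532478), lay 12252 bp away with a median of 15.2.

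The IPO7 site (chr11:9383431-9386716) was intergenic, 19483 bp upstream of the gene for the nuclear import receptor importin 7. Its RNAPII enrichment was 11.2, 16.8 and 25.0 with dCas9-VP16(10x) and 13.4, 39.3 and 58.1 with dCas9-p300(core), a median of 23.3 over all 20. It also had the highest median H3K27ac of all 85 sites, 39.0, with a peak in every list. H3K27ac there was 30.6, 45.2 and 110 with dCas9-VP16(10x) and 7.50, 28.3 and 91.4 with dCas9-p300(core), so that libraries of 1 construct differed by several fold.

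Of the other sites among the 10 with the most RNAPII, NKAIN1 (chr1:31626984-31628847), ZNF786 (chr7:148761989-148763226), TEF (chr22:41808700-41810849), MYH9 (chr22:36805278-36807286), EDN2 (chr1:41960820-41963212) and INSR (chr19:7098648-7099876) were intergenic. TEF encodes a bZIP transcription factor of the circadian output pathway, MYH9 the heavy chain of non-muscle myosin IIA, EDN2 the vasoconstrictor peptide endothelin 2 and INSR the insulin receptor. Their median RNAPII enrichments were 22.95 (NKAIN1), 22.2 (ZNF786), 21.3 (TEF), 19.1 (MYH9), 18.97 (EDN2) and 17.9 (INSR). The GLDC site (chr9:6680606-6682746), in an intron of a noncoding gene and 34877 bp upstream of the gene for glycine decarboxylase, had a median of 18.2. The BNIP3L site, in an intron of that mitophagy receptor gene, had 25.8. All 10 of these sites had RNAPII peaks in all 20 lists. Each had H3K27ac peaks in all 10 dCas9-VP16(10x) lists, and the dCas9-p300(core) lists with a peak numbered 6 or 7 except at IPO7 with 10. Beside 10 lists of dCas9-VP16(10x), the limit of 16 lists allows no fewer than 6 of dCas9-p300(core). The H3K27ac lists also differed in size, with a median of 6143 peaks with dCas9-p300(core) and 25025 with dCas9-VP16(10x).

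**Figure D1:**
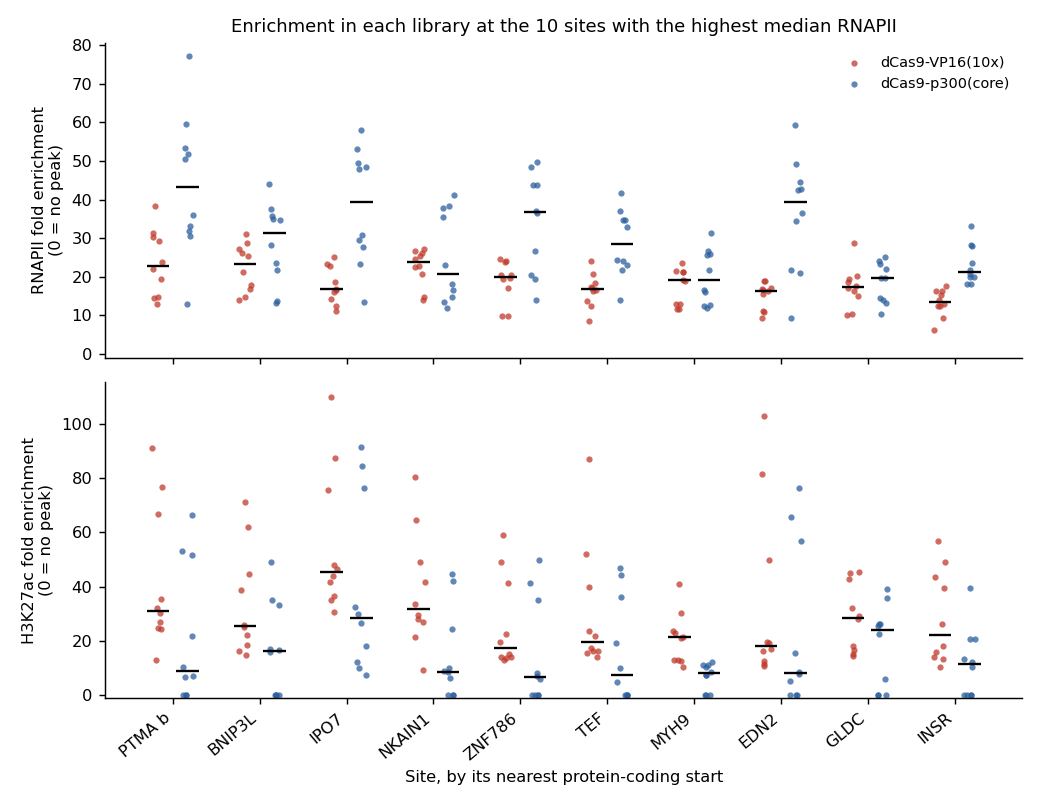
RNAPII (top) and H3K27ac (bottom) fold enrichment, without centring, at the 10 sites with the highest median RNAPII. Each point is 1 library, bars are medians of 10 libraries and 0 means that the list had no peak. The median of the dCas9-p300(core) libraries for RNAPII at PTMA b is 43.3 and that of the dCas9-VP16(10x) libraries is 22.9, and the groups overlap at 9 of the 10 sites.

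Over all 85 sites, 44 (51.8%) were intergenic by their midpoint, 31 (36.5%) lay in an intron of a protein-coding gene, 9 (10.6%) in an intron of a noncoding gene and 1 (1.18%) in an exon, of NPFFR1. Median RNAPII enrichment was 12.1 at the intergenic sites, 8.98 in introns of protein-coding genes and 7.93 in introns of noncoding genes. Sites were 1149 to 3885 bp wide (median 2524) and lay 5322 to 162568 bp from the nearest TSS of any kind (median 12900). The nearest protein-coding TSS was 6042 to 686622 bp away (median 23293), over 50 kb for 18 sites, and the sites were near 82 protein-coding genes in all. PTMA, MYOF and ZMIZ1 each had a pair of sites, and the MYOF sites were 2828 bp apart. The RNAPII summit lay a median of 274 bp from the H3K27ac summit of the same site, with a range of 36.5 to 1068 bp, so the polymerase peak was usually offset from the acetylation peak.

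Among the lists of genes that were compared with the sites, 1 of 22 epithelial and Mullerian lineage genes had a site (GRHL2, which encodes a transcription factor that maintains the epithelial state) and 1 of 21 immediate early and AP-1 genes had one (JUND, a subunit of AP-1). None of 17 keratin and junction genes and none of 17 estrogen responsive genes was the nearest protein-coding gene to any of the 85. These lists had 12, 11, 17 and 11 intervals in at least 16 H3K27ac lists, in the order lineage, immediate early, keratin and junction, estrogen responsive, of which 1, 3, 0 and 0 were distal. The JUND site (chr19:18401980-18404412), 9548 bp upstream of the gene, had RNAPII of 5.29, 9.09 and 10.9 with dCas9-VP16(10x) and 7.11, 19.6 and 26.1 with dCas9-p300(core). The GRHL2 site, 53302 bp upstream, had no RNAPII peak in 6 of 20 lists and a median of 7.93. The site named after TTLL10 (chr1:1092851-1095261) lay 7223 bp from MIR200B, of the miR-200 family that represses the mesenchymal regulators ZEB1 and ZEB2. Its median RNAPII was 13.4 and its median H3K27ac was 33.6, with RNAPII in all 20 lists.

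RNAPII was higher where CpG content was higher. A window of 300 bp at the RNAPII summit was called CpG-rich if over 50% of its bases were G or C and its CpG observed/expected ratio was over 0.6. By this measure, chosen after the values were seen, 29 of 85 sites (34.1%) were CpG-rich, and so were all 10 of the sites with the most RNAPII. Of the 42 sites with more RNAPII, 26 were CpG-rich, and of the other 43, 3 were. The 29 CpG-rich sites had median RNAPII of 15.8 (6.15 to 31.0), and the other 56 had 7.33 (1.66 to 15.2). H3K27ac differed less, with medians of 18.8 and 15.1. RNAPII was in all 20 lists at 25 of the 29 CpG-rich sites and at 11 of the 56 others. Across the 85 sites, Spearman's rho of median RNAPII was 0.72 with the CpG ratio of the whole interval, 0.65 with its GC share and 0.40 with median H3K27ac, but -0.09 with distance to a TSS. These are descriptions over sites that share the same libraries, and GC content can itself affect ChIP-seq enrichment, whose part here was not tested.

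**Figure D2:**
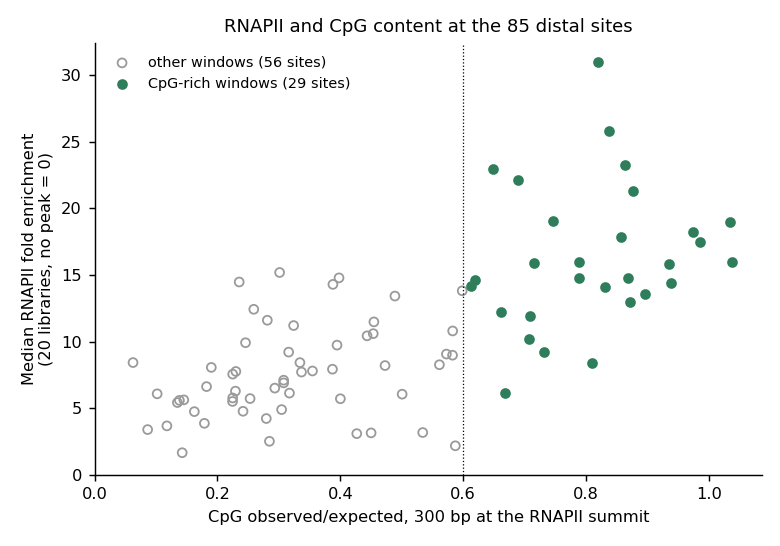
Median RNAPII fold enrichment over 20 libraries (no peak counted as 0) against the CpG observed/expected ratio of 300 bp at the RNAPII summit, 1 point per site. The dotted line is at 0.6, and the 29 CpG-rich sites (filled) run from 6.15 to 31.0 while the 56 others (open) run from 1.66 to 15.2.

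The same measure was applied to other intervals with a peak in at least 16 H3K27ac lists. The 1951 intervals over a TSS had CpG-rich windows in 92.9% of 1948 with an RNAPII summit, and the 28 distal sites with RNAPII in at most 2 lists had them at 1 of 14. Over the whole interval, the median CpG ratio was 0.38 for the 85 sites, 0.18 for the 28 and 0.74 for those over a TSS. Median GC was 54.2, 40.6 and 59.2%, respectively. Median H3K27ac was 16.0 at the 85 sites, 12.4 at the 28 and 19.6 over TSSs, and median RNAPII over TSSs was 17.9.

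**Figure D3:**
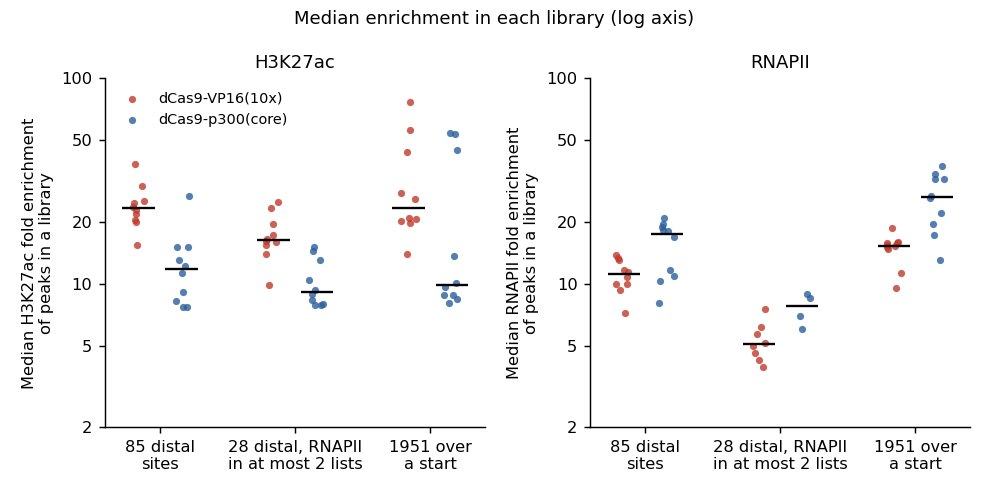
Median fold enrichment (log axis, without centring) of the peaks in each library at the 85 sites, at the 28 distal sites with RNAPII in at most 2 lists and at 1951 intervals over a TSS, for H3K27ac (left) and RNAPII (right). Points are libraries with at least 1 peak in the set and bars are medians over libraries. RNAPII medians at the 85 sites run from 7.20 to 13.9 with dCas9-VP16(10x) and from 8.10 to 20.9 with dCas9-p300(core), and over TSSs from 9.52 to 18.6 and from 13.1 to 37.4.

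AP-1 and TEAD motifs were found at a larger share of the sites than of intervals over a TSS. In the 300 bp at the interval midpoint, TGANTCA was found at 19 of 85 sites (22.4%), compared with 25.0% of the 28 distal sites with RNAPII in at most 2 lists, 3.95% of intervals over a TSS and 7.20% of all 2849. GGAATG was found at 29.4%, 21.4%, 10.6% and 13.7% of the same sets. Centred on the RNAPII summit, AP-1 stood at 27 of the 85 sites (31.8%) and TEAD at 34. In these windows, AP-1 stood at 22 of the 56 CpG-poor sites (39.3%) and at 5 of the 29 CpG-rich ones (17.2%), and TEAD at 48.2% and 24.1%. GGGCGG stood at 32.1% of the CpG-poor and 79.3% of the CpG-rich windows, and at 76.4% of windows over a TSS, but these letters are all G or C and hold a CpG, so the definition of CpG-rich windows favours them. The AP-1 and TEAD letters hold no CpG and include A and T, so the same definition disfavours them. GC content also differed between the sites and intervals over a TSS, and its part in the motif shares was not tested. No window of the 85, at midpoint or summit, held the estrogen response element GGTCANNNTGACC, which was in 1 of 2811 windows at RNAPII summits. The cyclic AMP element TGACGTCA was also in none.

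FOX (TGTTTAC) and SOX (ACAATG) motifs were in 2.35% and 10.6% of the 85 midpoint windows, AGATAA, the letters of GATA factors, in 4.71%, the E-box CAGCTG in 17 of 85 windows, the ETS motif CCGGAAGT in 2.35%, TATAAA, the core of the box of that name, in 3.53% and the glucocorticoid type element GNACANNNTGTNC in 1.18%. Of all 2849 intervals, these shares were 1.86, 7.02, 5.90, 15.1, 3.44, 6.63 and 0.386%. All motifs were searched on both strands. Matches of different motifs may overlap, and a match gives letters and not a bound factor.

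HA peaks lay at many of the sites, although no gRNA was designed for them. No HA library came from cells without the tagged fusion, so binding of the fusion and unspecific HA signal cannot be told apart. In at least 1 of the 7 HA lists of both constructs, 69 of 85 sites (81.2%) had an HA peak, beside 87.8% of all 2849 intervals, 98.4% of the 1951 over a TSS and 0 of the 28 distal sites with RNAPII in at most 2 lists. The share at the 85 sites was thus not above that of all intervals. All 29 CpG-rich sites had one, and 40 of the 56 CpG-poor sites (71.4%). By list, 37 sites had a peak in ERBS replicate 1, 69 in ERBS replicate 2, 23 in Adjacent replicate 1, 61 in Adjacent replicate 2 and 35 in IL1RN, while these lists held 6184, 30740, 4785, 25109 and 8149 peaks, so the fewest and the most sites were in the smallest and the largest list. Of the 6184 peaks of ERBS replicate 1, 98.9% overlapped a peak of replicate 2, and the pair may not be independent. Without replicate 2, 64 sites had an HA peak. With dCas9-p300(core), 0 and 1 of 85 sites had one, in lists of 154 and 141 peaks.

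The site with HA peaks in the most lists, 6 of 7, was C2orf42 (chr2:70367328-70370860), an intergenic site with RNAPII of 16.0 and the only one with an HA peak for dCas9-p300(core). Its HA fold enrichments with dCas9-VP16(10x) were 7.29 and 31.1 (ERBS), 12.2 (IL1RN) and 6.29 and 13.5 (Adjacent), and that with dCas9-p300(core) was 0 (no peak) and 10.5. A further 17 sites had HA peaks in all 5 dCas9-VP16(10x) lists, among them NKAIN1, with 12.2 and 29.9 (ERBS), 17.0 (IL1RN) and 13.2 and 27.3 (Adjacent). MYH9 had 7.85 and 13.9, 8.99, and 8.20 and 24.1 in the same order, and GLDC 6.26 and 27.7, 6.91, and 4.43 and 13.4. The control library with IL1RN gRNAs lay within the range of the others at each of these 4 sites. The BNIP3L site was the other of the first 5.

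**Figure D4:**
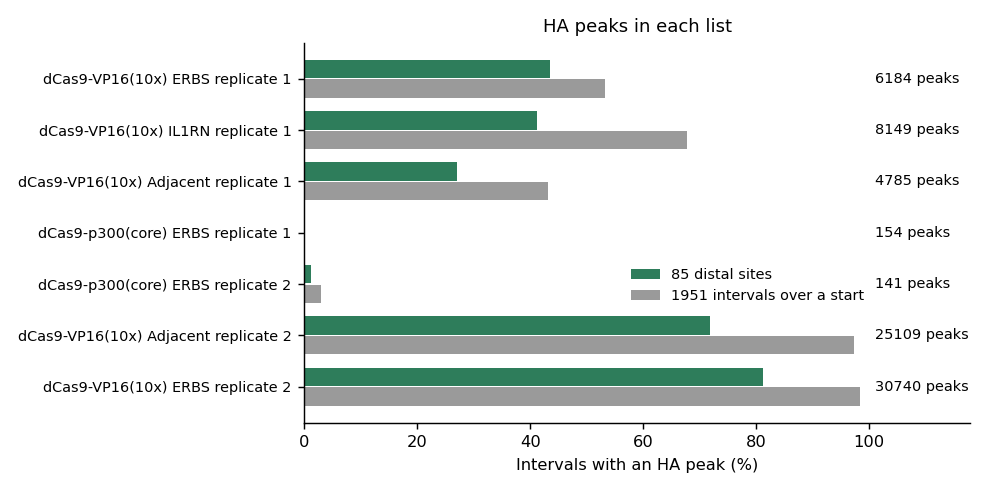
Share of the 85 distal sites and of 1951 intervals over a TSS with an HA peak in each list, with the number of peaks in the list at the right. Bars start at 0. The share at the distal sites is 27.1% in the list of 4785 peaks and 81.2% in that of 30740, and it is 0 and 1.18% in the dCas9-p300(core) lists.

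Whether the construct changed the sites was tested by limma on log2 fold enrichment over all 2849 intervals, with construct and gRNA pool in the fit and each library centred on its median over intervals with a peak in all lists. For H3K27ac, no site passed an adjusted p of 0.05 in either direction (0 of 85, beside 0% of all intervals), and 3 (3.53%, beside 6.60% of all intervals) had an unadjusted p under 0.05, a count that ran from 0 to 7 when 1 library was left out. The smallest adjusted p among the sites was 0.696. Differences, dCas9-VP16(10x) minus dCas9-p300(core), ran from -0.72 to 0.68 with a median standard error of 0.32 on the log2 scale. At the IPO7 site, the difference was -0.13 ± 0.23 (SE, adjusted p = 0.904) and at NKAIN1 it was 0.57 ± 0.24 (adjusted p = 0.696). Without centring, 46 sites were called higher with dCas9-VP16(10x), beside 35% of all intervals, and the median difference over all intervals was then 0.80. The limit of 16 H3K27ac lists chose both the sites and all intervals, so any without peaks in most lists of either construct could not be tested. Libraries without a peak were also missing in the fit. A dCas9-VP16(10x) list had H3K27ac peaks at a median of 85 sites and a dCas9-p300(core) list at 73.5. With missing values set to the lowest enrichment of the list, no site was called either.

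For RNAPII, 77 of the 85 sites could be tested, and the other 8 had peaks in only 2 of the 10 dCas9-p300(core) lists. Relative to the library medians, RNAPII was higher with dCas9-VP16(10x) at 29 of 77 sites (37.7%) and lower at 3 (3.90%), whereas 15.7% and 7.04% of all 2486 tested intervals were called, but the direction turned without centring, with 3 sites higher and 30 lower (0.724% and 78.2% of all intervals). The median difference was 0.44 at the sites and 0.04 over all intervals with centring, and -0.37 and -0.74 without it. Enrichment was thus lower with dCas9-VP16(10x) at the median site as deposited, but by less than at the median interval. Of the 29 called higher, 9 had RNAPII in all 20 lists. With only intervals that had RNAPII in all 20 lists, 9 of 36 sites were higher and 3 lower, beside 11.9% and 7.30% of all such intervals. The median difference was then 0.10 at the sites and 0.01 over all such intervals. The limit of 10 RNAPII lists counted both constructs together, so a site could meet it mainly through 1 of them. A dCas9-VP16(10x) list had peaks at a median of 82 sites and a dCas9-p300(core) list at 65.5. With missing values set to the lowest enrichment of the list, 21 sites were higher and 4 lower, beside 13.8% and 6.28% of all intervals.

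The 5 largest differences were at USP25, GRHL2, CTBP2, HDGFL1 and STK24, which were CpG-poor. At the USP25 site (chr21:17934937-17937374), in an intron of the noncoding gene MIR99AHG and 686622 bp from USP25, RNAPII relative to the library median was 0.599, 1.05 and 1.67 in the 8 dCas9-VP16(10x) libraries with a peak and 0.136, 0.305 and 0.659 in the 8 dCas9-p300(core) libraries with one. The log2 difference was 1.69 ± 0.31 (adjusted p = 0.00387), and the groups overlapped slightly. At CTBP2 (chr10:126751492-126755261), in an intron of this corepressor gene, the relative values were 0.337, 0.796 and 0.944 in 9 libraries with a peak against 0.112, 0.285 and 0.515 in 5. The difference was 1.44 ± 0.27 (adjusted p = 0.00437). At HDGFL1 (chr6:22826304-22830043), in an intron of a noncoding gene, the relative values were 0.609, 0.874 and 1.26 in 8 libraries with a peak against 0.161, 0.358 and 0.563 in 5. These did not overlap, but both constructs also had libraries without a peak, which were left out. The difference was 1.43 ± 0.29 (adjusted p = 0.00616). The STK24 site (chr13:99134677-99138297), in an intron of this kinase gene, differed by 1.20 ± 0.18 (adjusted p = 0.00173). It had a peak in 8 dCas9-VP16(10x) and 7 dCas9-p300(core) libraries.

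Sites of the upper range were also among those called. At GLDC, relative RNAPII was 0.898, 1.07 and 1.77 with dCas9-VP16(10x) and 0.609, 0.7005 and 0.810 with dCas9-p300(core), with no overlap, a difference of 0.67 ± 0.10 (adjusted p = 0.00087). Without centring, its enrichment was 10.1, 17.4 and 28.7 against 10.5, 19.7 and 25.2, and the groups overlapped throughout. NKAIN1 and MYH9 differed by 0.73 ± 0.18 (adjusted p = 0.00844) and 0.60 ± 0.17 (adjusted p = 0.0157). The 3 sites that were lower were AHDC1 (chr1:27900954-27903020), by -0.56 ± 0.16 (adjusted p = 0.0198), RAI1 (chr17:17596011-17599357), by -0.44 ± 0.11 (adjusted p = 0.00888), and ZMIZ1 a (chr10:80731517-80735171), by -0.43 ± 0.15 (adjusted p = 0.0396). ZMIZ1 encodes a PIAS-like coactivator. PTMA b, the site with the most RNAPII, differed by -0.06 ± 0.18 (adjusted p = 0.833). The GRHL2 site, with a peak in 8 dCas9-VP16(10x) and 6 dCas9-p300(core) libraries, differed by 1.65 ± 0.36 (adjusted p = 0.00724).

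**Figure D5:**
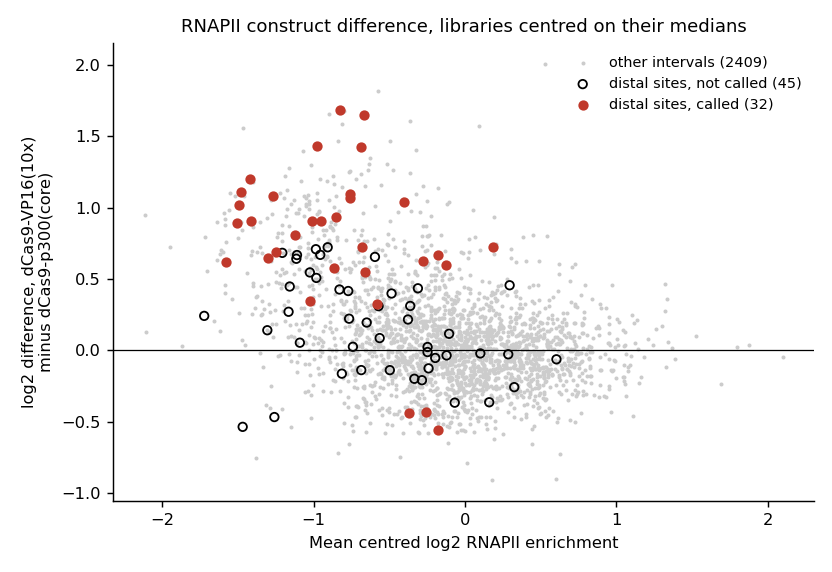
RNAPII difference between constructs (log2, dCas9-VP16(10x) minus dCas9-p300(core)) against the mean enrichment of the interval, both after centring each library on its median, for 77 distal sites and 2409 other intervals. Filled points passed an adjusted p of 0.05 in limma (29 higher and 3 lower, which turns to 3 and 30 without centring), and the sites with the largest differences lie at low enrichment.

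Several measures moved with this difference. In all 2486 intervals, it was larger at lower RNAPII, with a Spearman's rho of -0.34 (-0.46 over the 77 sites). In the 20% of intervals with the lowest mean, 23 of 45 sites (51.1%) and 34.1% of all intervals were called higher. In the rest, 6 of 32 sites (18.8%) and 11.1% of all intervals were. Peak names begin with a number in some lists, which no label explains: all 10 dCas9-p300(core) RNAPII lists share 1 number and 7 dCas9-VP16(10x) lists share another, while the other 3 (replicate 2 of Pools 1 to 3) have none, so the construct and whatever the number marks cannot be told apart. The 7 had median peak widths of 269 to 352 bp, and the other 3 had 478 to 619 bp, near the 402 to 594 bp of dCas9-p300(core). The lowest enrichment listed in a library was 2.23 to 2.83 in the 7, 1.61 to 2.76 in the 3 and 1.51 to 3.08 with dCas9-p300(core). With only the 7, 39 of 77 sites were called higher and 1 lower (20.2% and 11.3% of all intervals), with a median difference of 0.54. With only the 3, 4 of 75 sites were called higher and 2 lower (1.86% and 4.25% of all intervals), with a median of 0.05. A fit with only 3 dCas9-VP16(10x) libraries has less power, so its count of calls is not like for like. Within dCas9-VP16(10x) in Pools 1 to 3, where replicates differ in this, the libraries with a number were higher at 9 of 73 sites and lower at 2 (6.59% of 2459 intervals were higher), with a median difference of 0.32 at the sites and 0.04 overall. These comparisons by peak name were chosen after the data were seen.

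Whether gRNA pools changed the sites was tested as 4 contrasts per antibody, each of Pool 1, Pool 2, Pool 3 and Adjacent against the same 4 IL1RN control libraries. By limma, no site passed an adjusted p of 0.05 in any contrast, 0 of 85 for H3K27ac and 0 of 77 for RNAPII, beside 0% of all intervals for both. At an unadjusted p under 0.05 in at least 1 of the 4 contrasts, there were 34 of 85 sites for H3K27ac (21.6% of all intervals) and 11 of 77 (14.3%) for RNAPII (9.05% of all intervals). These counts rested on single libraries. The 34 fell to 11 without H3K27ac dCas9-p300(core) IL1RN replicate 1, to 12 without dCas9-VP16(10x) IL1RN replicate 1 and to 21 without dCas9-p300(core) Pool 3 replicate 1, and was at most 50 without any other, while the 11 rose to 31 without RNAPII dCas9-p300(core) IL1RN replicate 2. Among H3K27ac libraries without numbered peak names, 13 sites were called, beside 12.2% of all intervals, and among those with them none was.

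Values on both sides of the limits of the rule were as follows. The 9 sites with RNAPII in exactly 10 lists had a median RNAPII of 3.15 and a median H3K27ac of 12.2, and the 13 distal sites with RNAPII in 9 lists had 0, as the median over 20 lists must be with 9 peaks, and 11.7. The 29 sites with H3K27ac in exactly 16 lists had median H3K27ac of 14.9 and RNAPII of 9.07, and 23 intervals with 15 lists that met the other limits had 12.8 and 9.71. The site nearest to a TSS was GLDC at 5322 bp, and the nearest left-out interval lay at 4720 bp with RNAPII of 10.7. The widest site, LRP5 at 3885 bp, had RNAPII of 6.13, and the narrowest left out, at 4015 bp, had 2.30.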

How the data were processed

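ChIP-seq of Ishikawa cells was analysed from 47 peak lists, 20 for H3K27ac, 20 for RNAPII and 7 for HA. Per the submitters' processing notes, the tools were Bowtie 1.1.2, SAMtools, bedtools and MACS2 2.1.0.20140616 on hg19; the control used for peak calling is not given in the sources used here. Each deposited list gives a fold enrichment ratio over background, -log10 p-values and -log10 q-values as MACS2 writes them (lowest -log10 p 10.0), and a summit. Lists hold only peaks above that minimum, so a library without a peak was missing in the fits and 0 in medians. The table of the whole series was used for the positions of the 19 targeted loci only, not for its values per sample.

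The members and gene lists were chosen with earlier results of these data known. A library's value at an interval was its highest overlapping peak (1 bp). Construct and pool were fitted to log2 enrichment by limma 3.58.1 (R 4.3.3) after centring on the library median over intervals with a peak in all 20 lists (566 for H3K27ac and 2097 for RNAPII), with Benjamini-Hochberg adjustment over every interval tested. RNAPII was tested where at least 10 lists, 3 of each construct among them, had a peak. The fit was tested on simulated data with planted changes larger than any difference at the sites. The simulated noise was independent between libraries, so that test does not bear on effects that lists with the same number in their peak names may share. TSSs came from GENCODE release 44 lifted to GRCh37, on which all peaks fell within the chromosomes. Named sites are the 10 with the highest median RNAPII, up to 5 per direction with the largest called construct difference, those nearest to genes of the 4 lists, the 5 with HA peaks in the most lists and those at the limits of the rule; the TTLL10 site was named after its values were seen. The replicate pair that differed least was RNAPII dCas9-VP16(10x) IL1RN (SD of log2 differences 0.274, beside 0.293 to 0.701 for the others), and it was also counted as 1 library.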

Additional observations from a re-analysis of the deposited data

Results flagged for a closer look

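A library was tested for standing apart by Dixon's ratio in 46 groups of 4 to 10 libraries (sites with a peak and median enrichment per antibody and construct, and RNAPII at the named sites), and 2 exceeded the critical value. Chance flags about 1 in 20 groups. The H3K27ac library dCas9-VP16(10x) Pool 3 replicate 1 had peaks at 77 of the 85 sites, and the other 9 libraries of the construct had 84 or 85. The H3K27ac library dCas9-p300(core) Adjacent replicate 1 had a median enrichment of 26.8 at the sites, and the other 9 had 7.72 to 15.1. Leaving either out gave 0 called sites for H3K27ac, as with all libraries.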

How the results depend on the processing

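Leaving out 1 library at a time, the RNAPII construct difference was called higher with dCas9-VP16(10x) at 23 to 32 sites and lower at 2 to 5 (5 without dCas9-p300(core) IL1RN replicate 1), and the H3K27ac construct difference and the gRNA pool differences of both antibodies stayed at 0. In the same RNAPII construct fits, 12.1% to 21.2% of all intervals were called higher and 5.03% to 10.1% lower. Against 29 higher and 3 lower (15.7% and 7.04% of all intervals), RNAPII gave 3 and 30 without centring (0.724% and 78.2%), where the median difference over all intervals was -0.74. After quantile normalization, 19 were higher and 4 lower (10.9% and 8.69%). With RNAPII in all 20 lists, 9 of 36 tested were higher and 3 lower (11.9% and 7.30%). With 1 mean for each construct and pool, 19 of 59 tested were higher and 3 lower (12.3% and 5.87%). With only the dCas9-VP16(10x) libraries without numbered peak names, 4 were higher and 2 lower (1.86% and 4.25%). With only those that had them, 39 were higher and 1 lower (20.2% and 11.3%). H3K27ac gave 46 higher without centring (35% of all intervals). With only libraries without numbered peak names, it gave 2 of 68 lower (2.94%, beside 3.17% of all intervals) and 13 by pool (12.2% of all intervals). The cause was not tested. Comparisons by peak name were added after the data were seen. With the replicate block, 33 sites were higher and 3 lower for RNAPII (17.1% and 7.80% of all intervals), 0 for H3K27ac and 0 by pool, so no call count changed by over 1.5 times. No label says that a replicate number marks a shared batch, and deviations of same-numbered libraries correlated between groups at -0.50 to 0.93 for H3K27ac (24 of 45 pairs of groups over 0.1) and -0.34 to 0.73 for RNAPII (12 of 45), so the numbers were not taken as pairs. For H3K27ac, however, replicate 1 had numbered peak names and replicate 2 had none in 8 of 10 groups. The number in the peak names could not be fitted as a covariate for the RNAPII construct difference.

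The number of sites, 85, was 47 with peaks of a -log10 p of at least 20, 55 with no TSS within 10 kb, 164 with protein-coding TSSs only, 249 and 17 with H3K27ac in at least 12 or all 20 lists, 137 and 36 with RNAPII in at least 5 or all 20, and 160 with no width limit. Leaving out 1 library gave 56 to 85, and 56 without each of 6 H3K27ac libraries (dCas9-p300(core) Pool 2 replicate 1 and dCas9-VP16(10x) Adjacent replicate 1, IL1RN replicates 1 and 2 and Pool 1 replicates 1 and 2), since 16 of 19 lists is a stricter limit. HA counts ran from 64 to 69. Depth is unknown, so absent peaks may be undetected ones.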
